A study of Saccharomyces cerevisiae with 6 samples.

Results

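The genes described here build, transfer, trim and extend the sugar chains of secreted and cell surface proteins in the budding yeast Saccharomyces cerevisiae. The 49 genes were chosen by symbol from the steps of protein glycosylation, and all 49 were measured among 5449 genes tested. Each was read by 1 probe set of its own, without the suffix that marks sequence shared between genes. The comparison sets 3 arrays of cells with wild-type histone H2A against 3 arrays of the H2A R78A mutant, in which an arginine of H2A that reaches into the DNA minor groove (a sprocket arginine) is changed to alanine. Both groups grew in rich glucose medium (YPD) at 30 °C and were harvested in mid-log phase, at an optical density of 0.5 to 0.7. The labels give no strain background and no further alleles, and do not say whether replicates came from separate cultures. The p-values therefore rest on the scatter among these arrays, and that scatter may be technical.

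N-glycosylation begins at the membrane of the endoplasmic reticulum. A branched oligosaccharide is assembled on the lipid dolichol, first on the cytosolic and then on the lumenal side, and the oligosaccharyltransferase moves it onto asparagines of new proteins. Glucosidases and a mannosidase trim the transferred glycan while the protein folds, and Golgi mannosyltransferases then add the long mannan chains of the yeast cell wall. O-mannosylation is a separate route, started by the Pmt proteins on serine and threonine and extended in the Golgi by many of the same enzymes.

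The arrays were one-colour Affymetrix arrays, and a signal is a probe set intensity on a linear scale with the same trimmed mean on every array. Signals are not compared between genes. Log2 signals of array pairs correlated with r between 0.966 and 0.993 over all genes, which are not independent replicates, and no pair was identical. HTA1, a gene for H2A itself, had signals of 1768, 1749 and 1867 in wild type and 1736, 1836 and 1944 in the mutant. The groups overlapped, and limma gave a log2 difference of 0.03 (adjusted p = 0.686), or 0.19 after quantile normalization (adjusted p = 0.00828). For HTA2, which also encodes H2A, the probe set has the suffix for shared sequence. It read 1523, 1448 and 1440 against 1251, 1413 and 1332, without overlap (log2 difference -0.14, limma adjusted p = 0.0954). After quantile normalization the HTA2 difference was -0.01 (limma adjusted p = 0.844). A point mutation cannot be read from either probe set, and the genotypes were taken from the labels.

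Most of the glycosylation genes did not pass the test, and of those that did more were lower than higher. With limma and a threshold of 0.05 on the adjusted p, 7 of the 49 were lower (14.3%, against 9.18% of all genes tested) and 2 were higher (4.08%, against 17.9%). The 7 were MNS1, ALG9, KTR3, PMT6, KTR7, HOC1 and ROT2, and the 2 were MNN1 and ALG13. Log2 differences, H2A R78A minus wild type, ran from -0.83 for MNS1 to 0.28 for ALG3, and MNS1 was the only member with a difference of 1.5-fold or more. In cultures of many cells, less RNA per cell and fewer cells that hold it cannot be told apart. The median over the 49 genes was -0.07, beside 0.02 over all genes tested, and 65.3% of the members lay below 0, against 45.6% of all genes. By mean signal, 47 of the 49 members lay above the 25th percentile of all genes, as 4087 of the 5449 genes did. With only genes above it fitted, fewer of all genes were called higher, as given at the end. The members were not set against genes of like signal. The 95% intervals of the 40 members not called reached from -0.60 to 0.59. The shares of all genes, 9.18% lower and 17.9% higher, also stand beside the counts by class below. A class holds 3 to 9 genes, too few for a share to be read closely.

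**Figure D1:**
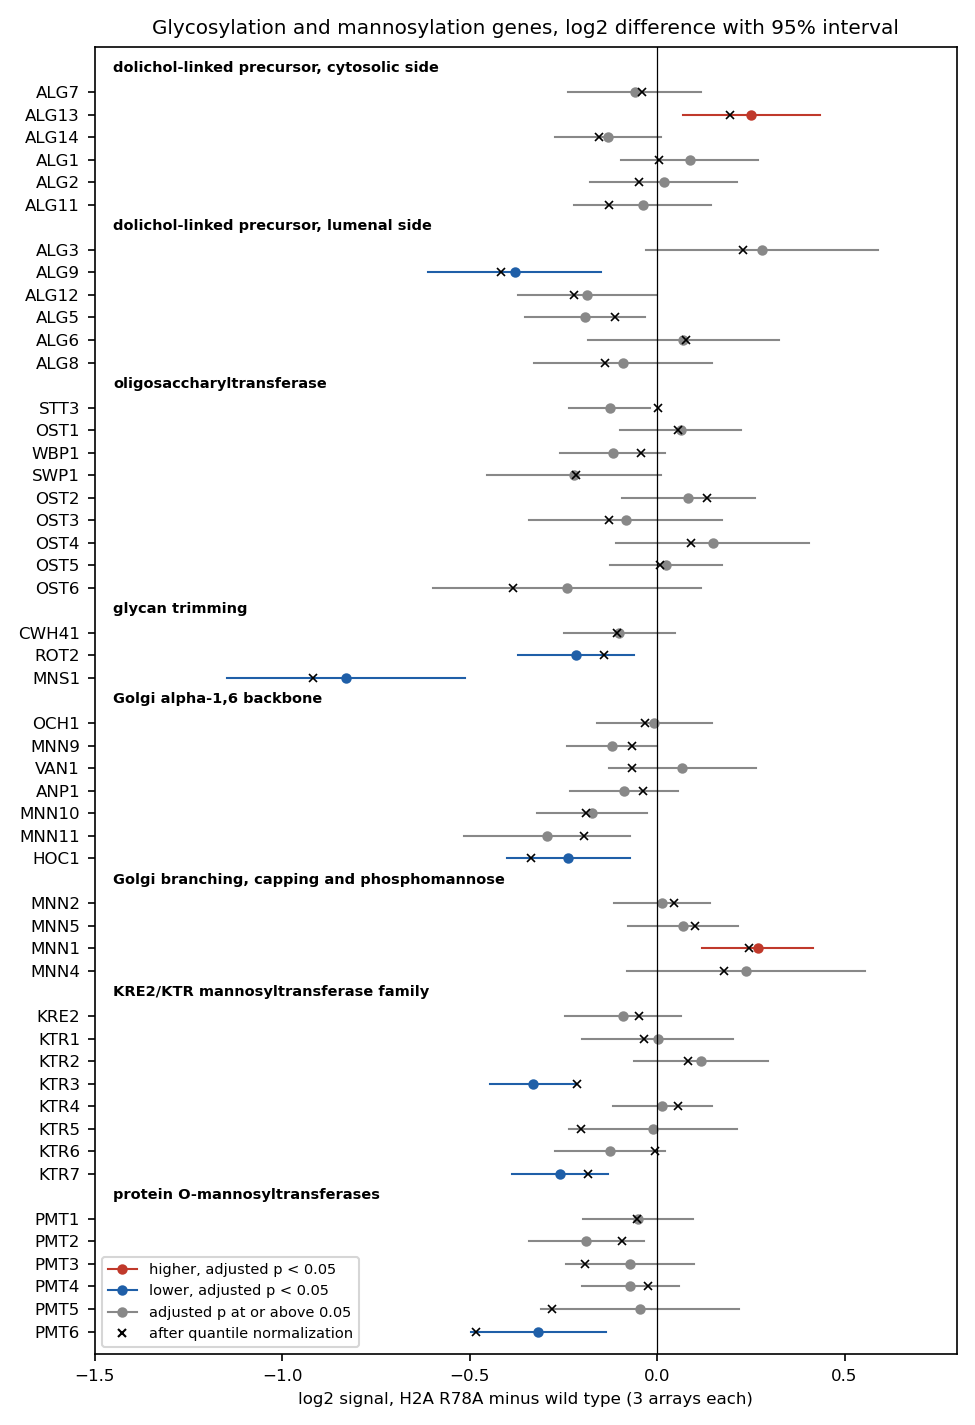
Log2 signal difference, H2A R78A minus wild type, of each of the 49 genes, ordered by role, with the 95% interval of limma as a line (3 arrays in each group); crosses give the difference after quantile normalization. MNS1 at -0.83 lies apart from the other 48, which lie between -0.38 and 0.28.

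These shares depended on how the arrays were scaled and whether same-numbered arrays were paired. After quantile normalization 6 members were lower and 1 higher, where 9.82% and 10.5% of all genes were, and the median was -0.05 beside -0.03 over all genes. The replicate number as a block gave 14 lower and 2 higher members, where 15.7% and 23.7% of all genes passed. The 9 genes named above were all among those 16, and MNN11, STT3, SWP1, OST6, ALG5, MNN10 and PMT2 were added as lower. The 6 signals did not overlap between the groups for 12 lower and 2 higher members of the 49, against 17.4% and 25.7% of all genes. These 12 were the 7 above and ALG14, STT3, MNN9, MNN10 and PMT2. Single arrays also moved the counts: lower members numbered 4 without wild-type replicate 1, 4 without mutant replicate 1 and 3 without mutant replicate 3, and higher members numbered 0, 1 and 1. Without the same arrays, all genes called lower numbered 228, 228 and 194 instead of 500, and all genes called higher numbered 762, 683 and 694 instead of 976.

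**Figure D2:**
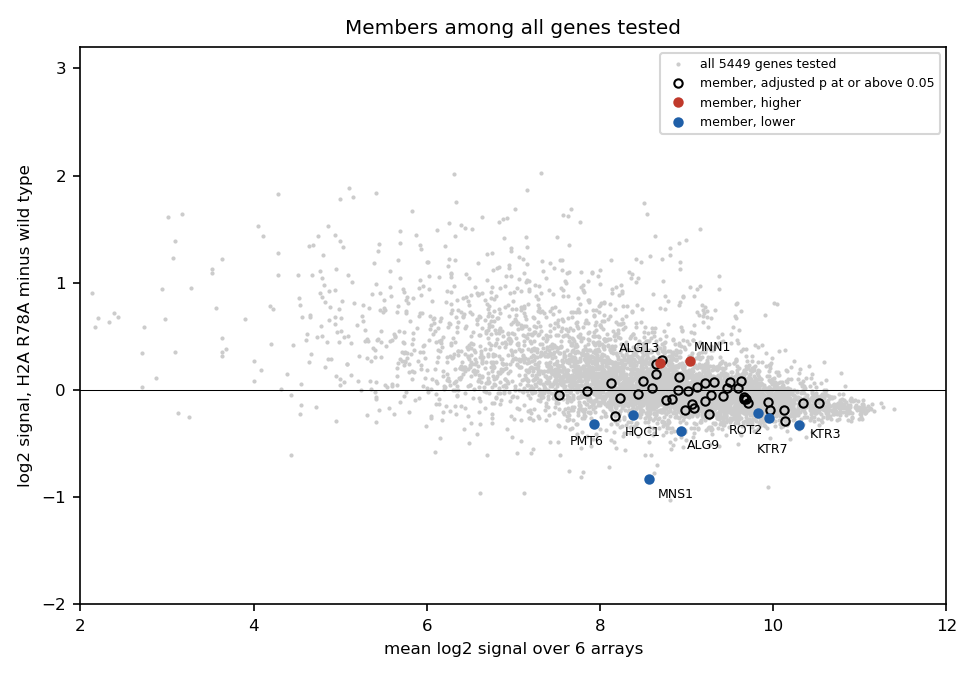
Mean log2 signal over the 6 arrays against the log2 difference, H2A R78A minus wild type, for all genes tested (grey) and for the 49 glycosylation genes; 4 genes lie outside the axes. The 9 members past the threshold are named, and MNS1 lies below the main cloud at -0.83.

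Glycan trimming held the gene with the largest difference. MNS1 (YJR131W) encodes the mannosidase of the endoplasmic reticulum, which removes a mannose and so helps time how long a misfolded glycoprotein is kept before degradation. Its signals were 558, 606 and 381 in wild type and 289, 282 and 282 in the mutant. The mutant values lay within a narrow band below all wild-type values, while wild-type replicate 3 lay well below the other wild-type arrays. MNS1 was 1.78-fold lower (515 ± 119 to 284 ± 3.96, mean ± SD, n = 3), a log2 difference of -0.83 ± 0.14 (standard error) with a limma adjusted p of 0.00193. Without wild-type replicate 3 the log2 difference was -1.03, and without wild-type replicate 2 it was -0.70. Among all genes tested it ranked 6 in size of decrease.

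ROT2 (YBR229C), the catalytic subunit of glucosidase II, read 950, 1077 and 915 in wild type and 863, 817 and 845 in the mutant. It was lower without overlap of the groups (log2 -0.22 ± 0.07 standard error, limma adjusted p = 0.0417), but missed the threshold after quantile normalization (-0.14, adjusted p = 0.143), with 5 other changes of scaling, filter or model (0.050 to 0.172) and whenever an array other than wild-type replicate 3 was left out (0.0759 to 0.121). CWH41, which encodes glucosidase I and acts before both, overlapped between the groups (log2 -0.10, 95% interval -0.25 to 0.05, limma adjusted p = 0.291).

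The genes on either side of MNS1 on its chromosome were compared with it. Next to MNS1 and on the same strand, NMD5 (YJR132W), an importin gene, read 592, 583 and 562 in wild type and 411, 496 and 417 in the mutant. NMD5 was lower without overlap (log2 -0.40 ± 0.08 standard error, limma adjusted p = 0.00551). One gene farther on, XPT1, a purine salvage gene, had a log2 difference of -0.17 (limma adjusted p = 0.0908). On the other side, STR2 of sulfur amino acid metabolism had 0.08 (0.607) and EFM3, a methyltransferase gene, 0.22 (0.0514), so neither passed. With the replicate block, XPT1 (adjusted p = 0.0245) and EFM3 (0.0264) did.

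**Figure D3:**
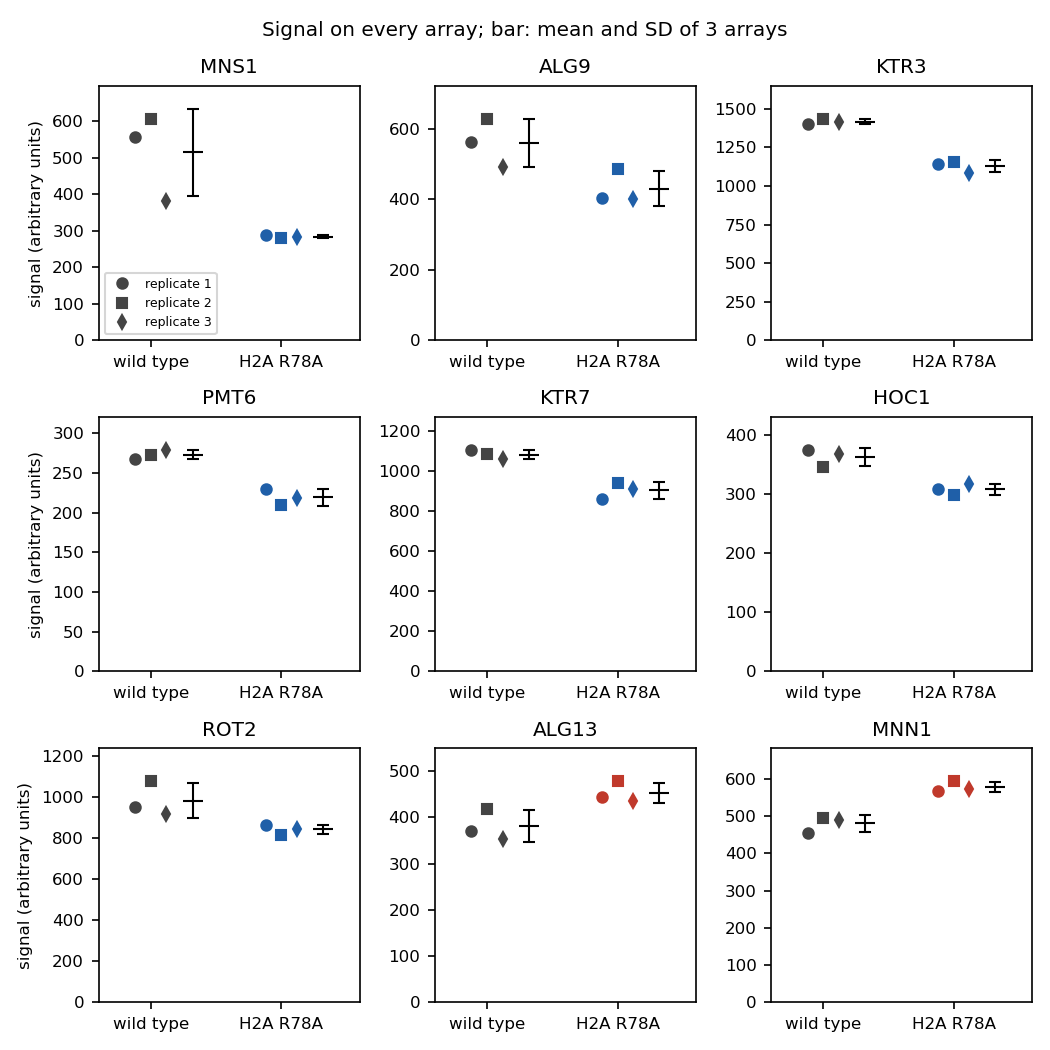
Signal on every array for the 9 glycosylation genes past the threshold, on a linear axis from 0; the symbol marks the replicate number and the bar gives the mean and SD of 3 arrays. The groups do not overlap in any of the 9, and wild-type replicate 3 of MNS1 (381) lies between the other wild-type arrays and the mutant arrays.

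Genes for the cytosolic steps of precursor assembly showed small differences. Of 6 genes 1 was higher and 0 lower, with a median log2 difference of -0.01. ALG13 (YGL047W), the catalytic partner of ALG14 in adding N-acetylglucosamine, read 371, 419 and 353 in wild type and 445, 478 and 435 in the mutant. It was 1.19-fold higher without overlap (log2 0.25 ± 0.08 standard error, limma adjusted p = 0.0458), just inside the threshold. The ALG13 call was lost with quantile normalization (adjusted p = 0.135), with 5 other changes of scaling, filter or variance model (0.0564 to 0.111) and when any array other than wild-type replicate 2 was left out (0.0858 to 0.127).

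ALG14, the membrane anchor of the same enzyme, lay on the other side of 0, with 565, 561 and 547 against 501, 495 and 532 (log2 -0.13, limma adjusted p = 0.152). The values of ALG14 did not overlap between the groups, but the difference did not pass. ALG7, which takes the initial step and is the target of tunicamycin, and the mannosyltransferase genes ALG1, ALG2 and ALG11 had log2 differences of -0.06, 0.09, 0.02 and -0.04. The 95% intervals of the 5 genes not called reached from -0.27 to 0.27 at most.

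On the lumenal side, where dolichol-linked mannose and glucose are the donors, 1 of 6 genes was lower and 0 were higher (median log2 -0.14). ALG5, which makes a donor used there, is counted among the 6. ALG9 (YNL219C), a mannosyltransferase, read 562, 626 and 491 in wild type and 403, 486 and 400 in the mutant. The highest mutant value, in replicate 2, came within a few units of the lowest wild-type value, in replicate 3. ALG9 was 1.30-fold lower (log2 -0.38 ± 0.10 standard error, limma adjusted p = 0.0226, and 0.00156 with the replicate block). The ALG9 call ended when wild-type replicate 1 or 2 or mutant replicate 1 or 3 was left out (0.0628 to 0.0872) and when low signals were raised to a floor (0.102).

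ALG3, the mannosyltransferase that acts before ALG9, had the largest positive difference of all members but not a called one. It read 352, 347 and 454 in wild type and 551, 378 and 475 in the mutant, so the groups overlapped (log2 0.28, 95% interval -0.03 to 0.59, limma adjusted p = 0.162). Mutant replicate 2 was the low one, and without it ALG3 passed (adjusted p = 0.0229), as it did without wild-type replicate 3 (0.0496). ALG12, a mannosyltransferase acting between the additions of ALG9, and ALG5, which makes dolichol-linked glucose, had log2 differences of -0.19 and -0.19 (limma adjusted p = 0.119 and 0.0722), and ALG5 passed with the block (0.0234). The glucosyltransferase genes ALG6 and ALG8 had 0.07 and -0.09.

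None of the 9 oligosaccharyltransferase genes passed the test. STT3, the catalytic subunit, read 1553, 1540 and 1540 in wild type and 1411, 1444 and 1391 in the mutant. The groups did not overlap, but the log2 difference of -0.13 had a limma adjusted p of 0.078 and was 0.00 after quantile normalization. The block brought 3 of the 9 past the threshold as lower, where 15.7% of all genes were. These were STT3 (limma adjusted p = 0.0346), SWP1 (0.0398) and OST6 (0.0476). With the block and quantile normalization together, OST6 passed (limma adjusted p = 0.00766), and STT3 (0.959) and SWP1 (0.0705) did not.

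OST3 and OST6 encode alternative subunits that define the different forms of the complex. OST6 had the largest difference of the 9, with 335, 238 and 391 in wild type and 270, 234 and 299 in the mutant (log2 -0.24, 95% interval -0.60 to 0.12, limma adjusted p = 0.294). Replicate 2 was the lowest array in both groups, and the groups overlapped widely. Without wild-type replicate 2 the OST6 difference was -0.44 and passed (adjusted p = 0.030), and without wild-type replicate 3 it was -0.08 (0.715). OST3 had a log2 difference of -0.08. SWP1 and WBP1 had -0.22 and -0.12, and OST1, OST2, OST4 and OST5 had 0.06, 0.08, 0.15 and 0.02, with adjusted p-values over the 9 genes from 0.078 to 0.818.

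Among 7 genes for the Golgi mannan backbone 1 was lower, 0 were higher and 6 lay below 0 (median log2 -0.12). OCH1, which starts the outer chain, read 527, 539 and 492 in wild type and 508, 545 and 498 in the mutant. Its groups overlapped, and the log2 difference of -0.01 had a 95% interval from -0.16 to 0.15. MNN9 and VAN1, which form the polymerase complex M-Pol I, had -0.12 (limma adjusted p = 0.121) and 0.07 (95% interval -0.13 to 0.26).

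The other subunits of M-Pol II beside MNN9 lay below 0. HOC1 (YJR075W) read 374, 346 and 367 in wild type and 308, 297 and 317 in the mutant, without overlap, and was 1.18-fold lower (log2 -0.24 ± 0.07 standard error, limma adjusted p = 0.0392). The HOC1 difference was larger after quantile normalization (-0.34, adjusted p = 0.00947), and its call ended without any 1 of the arrays other than wild-type replicate 2 (0.0777 to 0.130). MNN11 read 1253, 1356 and 1136 against 925, 1200 and 947, where mutant replicate 2 reached into the wild-type range (log2 -0.29, limma adjusted p = 0.0523). With the block, MNN11 passed (0.00326), as did MNN10 (log2 -0.17, 0.0743 without the block and 0.0471 with it), while ANP1 did not (-0.09, 0.338 and 0.201).

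The 4 genes for branching, capping and phosphomannose all lay above 0, and 1 passed; with median centring MNN2 lay at -0.05. MNN1 (YER001W), which caps chains with terminal mannose, read 454, 496 and 490 in wild type and 566, 593 and 573 in the mutant. It was 1.20-fold higher without overlap (480 ± 22.7 to 578 ± 14.1, log2 0.27 ± 0.07 standard error, limma adjusted p = 0.0139). The MNN1 call held under every alternative run except without wild-type replicate 1 (adjusted p = 0.064). MNN4, a regulator of mannose phosphorylation, read 325, 354 and 434 against 499, 345 and 476, with mutant replicate 2 within the wild-type range (log2 0.24, limma adjusted p = 0.241, and 0.0219 without that array). MNN2 and MNN5, which start and extend the branches, had 0.01 and 0.07, with 95% intervals of -0.11 to 0.14 and -0.08 to 0.22.

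In the KRE2/KTR family of Golgi mannosyltransferases, 2 of 8 genes were lower and 0 higher (median log2 -0.05). KTR3 (YBR205W), which extends O-linked and N-linked chains, read 1402, 1433 and 1417 in wild type and 1141, 1159 and 1086 in the mutant. The wild-type values lay close together and far above the mutant values, and KTR3 had the smallest adjusted p of all members (1.26-fold lower, 1418 ± 15.4 to 1128 ± 38.0, log2 -0.33 ± 0.05 standard error, limma adjusted p = 0.0012). KTR7 (YIL085C), a less studied family member, read 1104, 1083 and 1059 against 859, 943 and 912 (1.20-fold lower, log2 -0.26 ± 0.06 standard error, limma adjusted p = 0.00825). After quantile normalization KTR3 was lower by -0.21 and KTR7 by -0.19 on the log2 scale, smaller in size than on the deposited scale. Both stayed past the threshold under every alternative run, as did MNS1 and no other member.

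The other 6 family members did not pass. KRE2, an O-chain mannosyltransferase, and KTR1 had log2 differences of -0.09 and 0.00, KTR2 and KTR4 0.12 and 0.01, and KTR5 and KTR6 -0.01 and -0.12. KTR6 is the mannosylphosphate transferase that works with MNN4. Its signals were 1405, 1235 and 1447 in wild type and 1222, 1281 and 1238 in the mutant, so wild-type replicate 2 lay within the mutant range (limma adjusted p = 0.185). KTR5 was 1 of 2 members, with PMT5, whose mean lay below the background level, the 25th percentile of all genes (a signal of 232).

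Of the 6 protein O-mannosyltransferase genes 1 was lower and 0 higher. All 6 lay below 0 on the deposited scale (median log2 -0.07), where 45.6% of all genes did. After quantile normalization all 6 still did (median -0.14, beside -0.03 over all genes). The larger median came from PMT3, PMT5 and PMT6, those of lowest signal, which moved to -0.19, -0.28 and -0.48. PMT1 stayed at -0.05, and PMT2 and PMT4 shrank to -0.09 and -0.02. PMT6 (YGR199W) read 267, 273 and 279 in wild type and 230, 209 and 219 in the mutant. The groups were apart, with all 3 mutant values below the background level of 232 used here, so the size of the difference is uncertain. PMT6 was 1.25-fold lower (273 ± 5.85 to 219 ± 10.3, log2 -0.32 ± 0.08 standard error, limma adjusted p = 0.0168). After quantile normalization the PMT6 difference was -0.48 (adjusted p = 0.0016), larger than on the deposited scale, and the call ended without mutant replicate 3 (0.0602).

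PMT1 and PMT2, which form the main heteromeric complex, had log2 differences of -0.05 and -0.19. PMT2 read 1188, 1273 and 1134 in wild type and 980, 1133 and 1045 in the mutant, where the highest mutant value lay just under the lowest wild-type value (limma adjusted p = 0.0665, and 0.0144 with the block). PMT4, which acts as a homodimer, had -0.07, and PMT3 and PMT5 had -0.07 and -0.05. The 95% intervals of the 5 genes not called reached from -0.34 to 0.22.

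**Figure D4:**
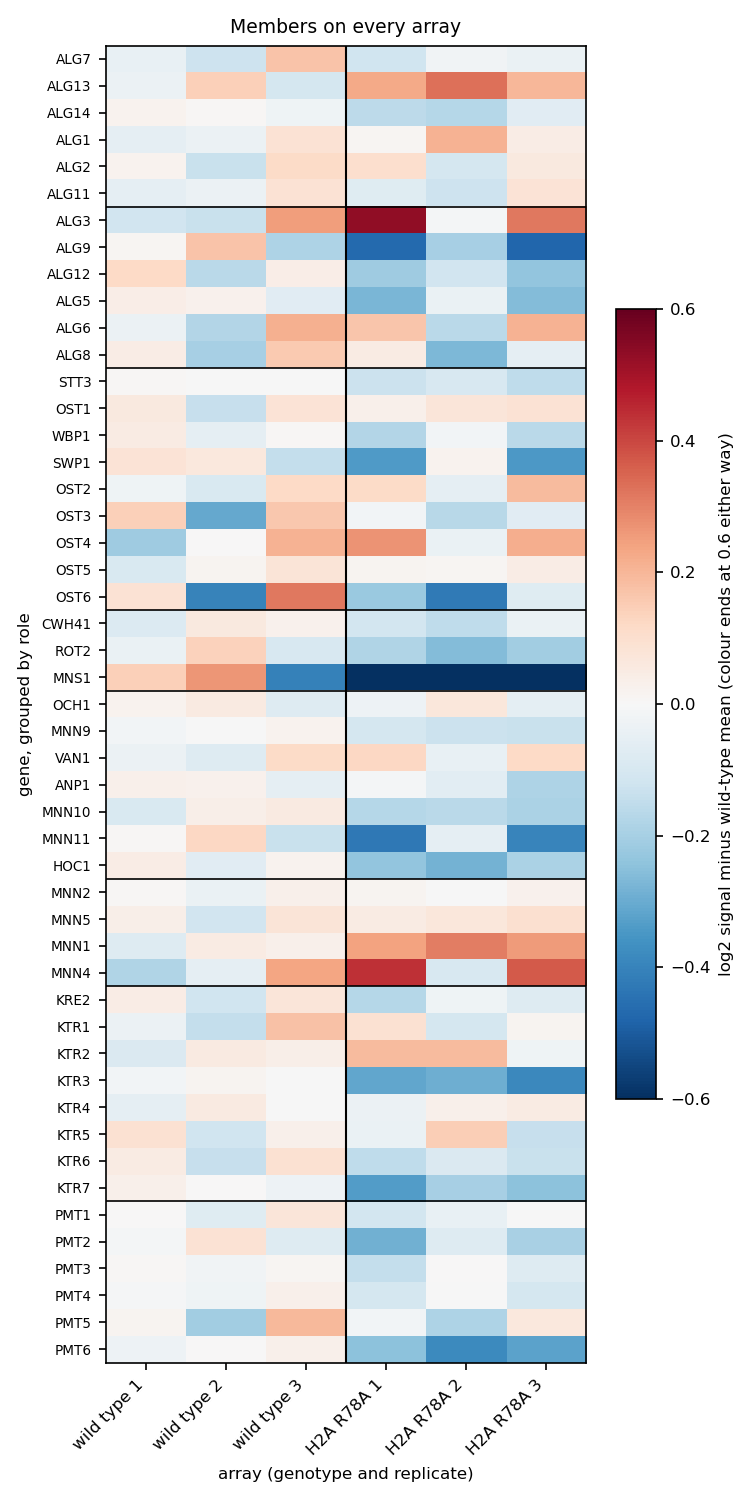
Log2 signal minus the wild-type mean of the gene, for the 49 genes (rows, grouped by role) on each of the 6 arrays (columns); the colour scale ends at 0.6 either way, so MNS1 (-0.83 on average) is at its end in the mutant. Columns of the mutant differ among themselves, with replicate 2 paler or opposite to replicates 1 and 3 in rows such as ALG3, MNN4, SWP1 and MNN11.

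Across arrays the members did not all move in the same direction. On mutant replicates 1, 2 and 3, 32, 37 and 31 of the 49 lay below the gene's wild-type mean. Of all genes 42.4%, 49.9% and 45.5% did. The median of the 49 log2 signals, each taken relative to the gene's wild-type mean, was 0.01, -0.03 and 0.03 on the wild-type arrays and -0.10, -0.06 and -0.07 on the mutant arrays. Over all genes the same medians were 0.01, -0.01 and 0.01, and 0.05, 0.00 and 0.03. The mutant arrays were therefore lower for the members by the median than each wild-type array. Within the mutant group replicate 2 was the array farthest from the gene's group median for 31 of 49 members (63.3%), as it was for 46.7% of all genes.

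Arrays of the same number shared their place within the group to differing degrees. Replicate 2 was the lowest array in both groups for 12 members (ALG2, ALG3, ALG6, ALG8, OST2, OST3, OST6, VAN1, HOC1, MNN2, KTR1 and PMT5) and the highest in both for 7 (ALG13, ALG9, OCH1, MNN11, MNN1, KTR3 and PMT2). Over all genes these shares were 23.7% and 17.4%. Replicate 3 was the lowest in both groups for 5 members and the highest for 10 (14.3% and 15.4% of all genes), and replicate 1 for 3 and 1 (8.22% and 14.7%). The pooled within-group SD of a member had a median of 0.09 on the log2 scale, beside 0.10 over all genes. It was smallest for MNN9 (0.02) and largest for OST6 (0.29).

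**Figure D5:**
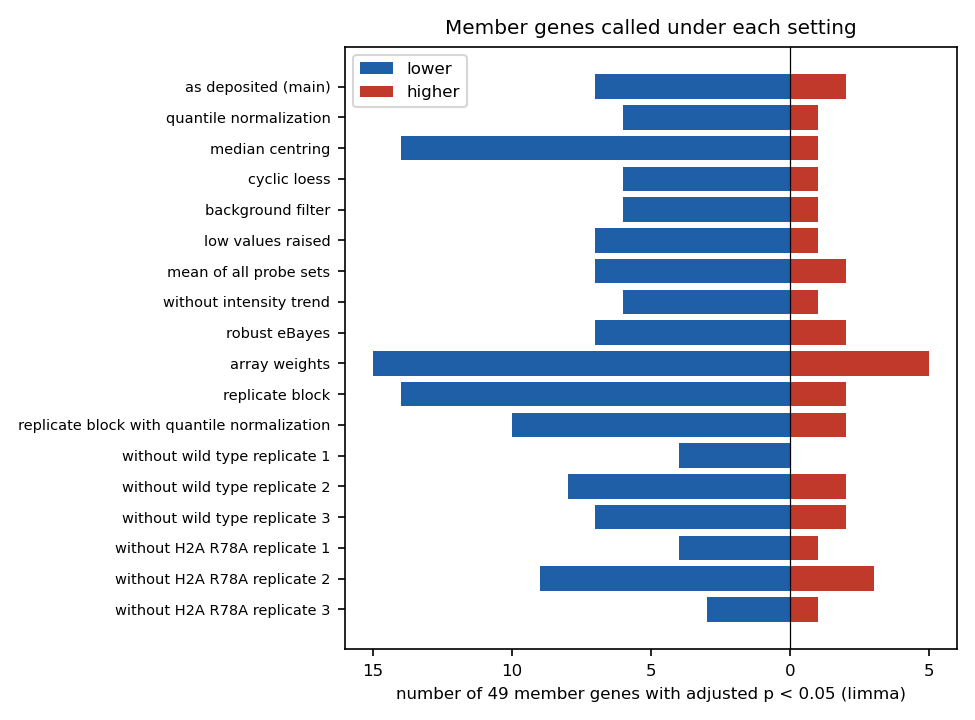
Number of the 49 genes past an adjusted p of 0.05 in limma, lower (left) and higher (right), under the setting reported and each of 17 alternatives. The count of lower genes lies between 3 and 15 and that of higher genes between 0 and 5.

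Other genes of the pathway were taken from 4 lists, of which 81 genes were analysed. In all, 14 of the 81 were lower and 6 higher, with a median log2 difference of -0.07, against 9.18% and 17.9% of all genes.

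Among 19 genes that supply dolichol and activated sugars, 5 were lower (26.3%, against 9.18% of all genes) and 0 higher (against 17.9%). Their median log2 difference was -0.09, and 16 of the 19 lay above the background level. PCM1, a mutase of N-acetylglucosamine phosphate, read 1160, 1278 and 1200 in wild type and 962, 923 and 1025 in the mutant (log2 -0.32, limma adjusted p = 0.00378). GFA1, which commits fructose phosphate to amino sugar synthesis, read 1000.4, 945 and 838 against 713, 839 and 688 (log2 -0.32, limma adjusted p = 0.0254), and the highest mutant value lay just above the lowest wild-type value. The other genes lower were QRI1, which follows PCM1 in making UDP-N-acetylglucosamine (-0.20, 0.0446), DPM1, which makes dolichol-linked mannose (-0.21, 0.0356), and SEC53, a phosphomannomutase (-0.21, 0.0438). These 3 were named after their values were seen. After quantile normalization PCM1 and DPM1 stayed past the threshold (adjusted p = 0.0238 and 0.0279), and GFA1, QRI1 and SEC53 did not (0.0505, 0.0931 and 0.251). GNA1, the enzyme between GFA1 and PCM1, had 0.02 (limma adjusted p = 0.822).

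Of 26 genes of folding and quality control in the endoplasmic reticulum 6 were lower (23.1%) and 1 higher (3.85%), against 9.18% and 17.9% of all genes. Their median log2 difference was -0.10. CNE1, the yeast calnexin homologue, read 289, 289 and 278 in wild type and 186, 214 and 198 in the mutant, and was 1.44-fold lower without overlap (log2 -0.52 ± 0.09 standard error, limma adjusted p = 0.00149). After quantile normalization the CNE1 difference was -0.70. All 3 mutant signals of CNE1 lay below the background level of 232, so the size of its difference is uncertain. MPD1, a disulfide isomerase, was the gene that was higher, with 332, 298 and 378 against 474, 404 and 425 (log2 0.37, limma adjusted p = 0.0193). The other genes lower, named after their values were seen, were SCJ1 (-0.37, limma adjusted p = 0.0072), a co-chaperone, EPS1 (-0.27, 0.0192), of the disulfide isomerase family, IRE1 (-0.28, 0.0356), the sensor of the unfolded protein response, and SEC62 (-0.22, 0.0228) and SSS1 (-0.16, 0.047) of the translocon. After quantile normalization CNE1, SCJ1, EPS1 and IRE1 stayed past the threshold, and SEC62 and SSS1 did not (0.0568 and 0.627). All 3 mutant and all 3 wild-type signals of IRE1 lay below the background level.

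GPI anchor assembly, which also uses dolichol-linked mannose, had 4 of 27 genes higher (14.8%) and 3 lower (11.1%), with a median log2 difference of 0.00. These shares lay near those of all genes (17.9% and 9.18%). ERI1, a subunit of the enzyme of the initial step, read 132, 151 and 149 in wild type and 240, 220 and 206 in the mutant (log2 0.63, limma adjusted p = 0.00132). GPI2, of the same enzyme, read 63.6, 74.6 and 75.9 against 128, 94.3 and 103 (log2 0.60, limma adjusted p = 0.012). The mean log2 signals of both probe sets over the 6 arrays lay below the background level of 232, though mutant replicate 1 of ERI1 (240) did not. After quantile normalization ERI1 remained past the threshold (0.38, limma adjusted p = 0.0205) while GPI2 did not (0.20, 0.305). Of 9 other glycosyltransferase genes 1 was higher (11.1%, against 17.9% of all genes) and 0 lower. It was MNT4, a mannosyltransferase of O-linked chains, with 256, 270 and 274 against 328, 348 and 314 (log2 0.31, limma adjusted p = 0.017, and 0.150 after quantile normalization).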

How the data were processed

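Signal intensities per probe set were deposited by the authors on a linear scale, and the 2% trimmed mean was 500 on every array. The submitters' processing notes name MAS5 and limma; the sources used here give neither their versions nor their roles. Of 5900 probe sets, 5498 had 1 gene in the platform annotation, with symbols updated through the R64 gene table, and 402 without a gene name were left out. The probe set with the highest mean stood for a gene. Log2 signals of 5449 genes were fitted with limma 3.58.1 in R 4.3.3 (lmFit, eBayes with an intensity trend, two-sided, Benjamini-Hochberg over all genes, threshold 0.05), a procedure tested on simulated data. The number of arrays limits the precision.

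The members, lists and alternatives were chosen with earlier results of these data known. Values on every array are given for members past the threshold without overlap and, in classes with none, for the member with the largest difference. In each further list up to 2 members past the threshold were named. HTA1, HTA2 and the genes beside MNS1 were also named. Other genes were given in full after their values were seen. No gene sequences were used here. Residuals of same-numbered arrays correlated with r = 0.206, 0.383 and 0.427 across all genes (0.106, 0.371 and 0.465 above the background level), and those of different-numbered arrays with r from -0.449 to 0.154 (-0.479 to 0.194). Every same-numbered r was over 0.1. That of wild-type replicate 3 with mutant replicate 1 was too (0.154, and 0.194 above the background level). The main fit used genotype only, and same-numbered arrays were paired in the replicate block, an alternative. Figures were drawn with matplotlib 3.10.9.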

Additional observations from a re-analysis of the deposited data

How the results depend on the processing

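The 9 members past the threshold kept their direction under all 17 alternatives, and no call reversed. Of the 40 other members, 14 changed sign under at least 1 alternative while not past the threshold, each with a main log2 difference of at most 0.13 in size. Higher members numbered 1 after quantile normalization, median centring, cyclic loess, the background filter, raising of low values and without the intensity trend, and 5 with array weights; leaving out 1 array gave 0 to 3. Lower members numbered 14 with median centring and with the replicate block, and 15 with array weights; leaving out 1 array gave 3 (without mutant replicate 3) to 9, and 4 without wild-type replicate 1 or mutant replicate 1. The members' median was -0.13 with median centring and -0.0309 with cyclic loess, and -0.0908 to -0.045 with 1 array left out. The replicate block ended none of the 9 calls and added the 7 named in the text, with XPT1 and EFM3 beside MNS1. The block with quantile normalization gave 10 lower and 2 higher members: ROT2 was lost (adjusted p = 0.112), of the 7 MNN10, MNN11 and OST6 passed, SWP1 (0.0705), ALG5 (0.138), PMT2 (0.142) and STT3 (0.959) did not, and PMT5 was added (0.0247).

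The number of all genes called higher, 976 as reported, became 573 (quantile), 632 (cyclic loess), 418 (background filter) and 574 (low values raised), and all genes called lower, 500 as reported, became 875 (median centring), 312 (no trend), 920 (array weights), 857 (replicate block) and 839 (replicate block with quantile normalization). Leaving out 1 array gave 683 to 1085 higher and 194 to 601 lower. The number of related genes called higher, 6 as reported, became 3 (quantile, cyclic loess, block with quantile) and 2 (background filter, low values raised), and 3 to 8 with 1 array left out; related genes called lower, 14 as reported, became 22 (median centring, block with quantile), 8 (cyclic loess), 9 (no trend) and 24 (array weights), and 5 to 10 with 1 array left out. The cause of these shifts was not tested.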
